A study of Mus musculus with 12 samples.

Results

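The response of CD18wt regulatory T cells (Treg) to stimulation through the T cell receptor was described from 6 RNA libraries, which are the samples of genotype CD18wt among the 12 libraries of the series. Of these, 3 came from Treg kept overnight in IL-2 alone (unstimulated) and 3 from Treg that also received agonistic antibodies to CD3 and CD28 (stimulated). The question was which genes rise, which fall and by how much when Treg with intact CD18, the β2-integrin chain encoded by Itgb2, are activated for one night. All cells were CD4+ splenocytes positive for a red fluorescent protein (RFP) and sorted by flow cytometry. Both groups received 5 U/mL of recombinant human IL-2, and the stimulated group additionally 1 µg/mL anti-CD3 and 2 µg/mL anti-CD28. CD18wt mice were littermates with a CD18wt/wt locus that carried Foxp3-Cre and an RFP reporter at the ROSA26 locus, so that the Cre and the reporter were shared by both groups. RFP marks every cell in which Foxp3-Cre has been active and their progeny, and age and sex of the animals are not named in the labels. The other 6 libraries were from CD18Foxp3 Treg, in which the same Cre removes Itgb2 exon 3, and were used here only to ask whether the response differed between the genotypes.

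Treg restrain other immune cells and depend on the transcription factor Foxp3 and on IL-2 made by other T cells. CD3 transmits the signal of the T cell receptor (TCR), and CD28 is the main costimulatory receptor. Together they activate calcium and NFAT, ERK and AP-1, NF-kappaB and the kinase mTORC1, which drive growth, metabolism and division, and they switch off the transcription factors Foxo1 and Klf2, which keep resting T cells small and recirculating between blood and lymphoid organs.

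The libraries held 10665174 to 18065610 exon reads in unstimulated and 11940189 to 17027608 in stimulated Treg. The first principal component of log2 CPM held 70.6% of the variance and separated the stimulated from the unstimulated libraries. The second held 10.9% and set unstimulated replicate 3 (-45.37) apart from unstimulated replicates 1 (25.2) and 2 (19.61). This library had the fewest exon reads, the lowest share of gene reads in introns of the 6 (3.32% against 4.81% and 5.02% in the other unstimulated libraries) and the highest share of ribosomal protein transcripts (28.2% of TPM against 22.9% and 23.69%). Its effect on early response genes is given beside them. Of the called genes named below, Bcl2, Cox4i1, Csf1, Gbp2, Ier3, Nfil3, Prdm1, Tgfb1, Tnfrsf1a, Txnip and Xcl1 did not pass the threshold without this library, with unchanged direction and adjusted p from 0.014 to 0.029. Foxp3 was detected at 95.5, 108 and 73.4 TPM in unstimulated and 166, 133 and 173 TPM in stimulated libraries, and Cd4 and Cd3e were abundant in all 6 libraries. Itgb2 was present at 387 to 465 TPM in unstimulated and 329 to 331 TPM in stimulated CD18wt Treg, above the 131 to 257 TPM in the 6 CD18Foxp3 libraries. Summed levels of marker genes of other cells were low. For B cells (10 genes, 3 tested) they were 28.5 to 30.8 TPM in unstimulated and 10.4 to 20 TPM in stimulated libraries, mostly from Cd79b, for myeloid and dendritic cells (12 genes, 2 tested) 8.52 to 20.7 TPM and 6.36 to 10.3 TPM, for plasma cells (6 genes, 2 tested) 1.4 to 6.03 TPM and 2.19 to 3.61 TPM, and for erythroid cells and platelets (8 genes, 0 tested) 1.83 to 11.5 TPM and 0.725 to 4.04 TPM. For CD8 T and NK cells (8 genes, 4 tested) they were 79.0 to 96.1 TPM and 93.6 to 148 TPM, of which Nkg7 made up the most. Ighm, Igkc, S100a9 and Ncr1 had no read in any of the 6 libraries. The part of these cells in any result was not tested. None of these lists covers CD4 T cells without Foxp3, which RFP would also mark if Foxp3-Cre had once been active. Their part in the results, such as those for Il2, Il3 and Csf2, was not tested either.

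Stimulation changed the RNA of CD18wt Treg broadly. Among 41457 genes counted, 11930 had enough reads to be tested, and 4013 of them (33.6%) passed the threshold of a 1.5-fold change and an adjusted p of at most 0.01 (edgeR quasi-likelihood test, Benjamini-Hochberg adjustment over all genes tested). A test against the fold of 1.5 itself (glmTreat) called 2092 genes, 1236 higher and 856 lower. Genes past the threshold of the first test are called higher or lower below. There were 2234 genes higher (18.7%) and 1779 lower (14.9%) in stimulated Treg. A change of at least 2-fold was reached by 1429 higher and 1085 lower genes, of at least 8-fold by 238 and 122, and of at least 32-fold by 58 and 14. In 3686 of the called genes all 3 stimulated libraries lay on one side of all 3 unstimulated libraries in TPM, as they did in 7394 of all genes tested. Genes called higher together held 74484 TPM in unstimulated and 219781 TPM in stimulated Treg on average, and genes called lower 533651 and 316638 TPM. As RNA was pooled from many cells, a lower level can mean fewer cells with a transcript or less of it per cell, and these cannot be told apart.

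**Figure D1:**
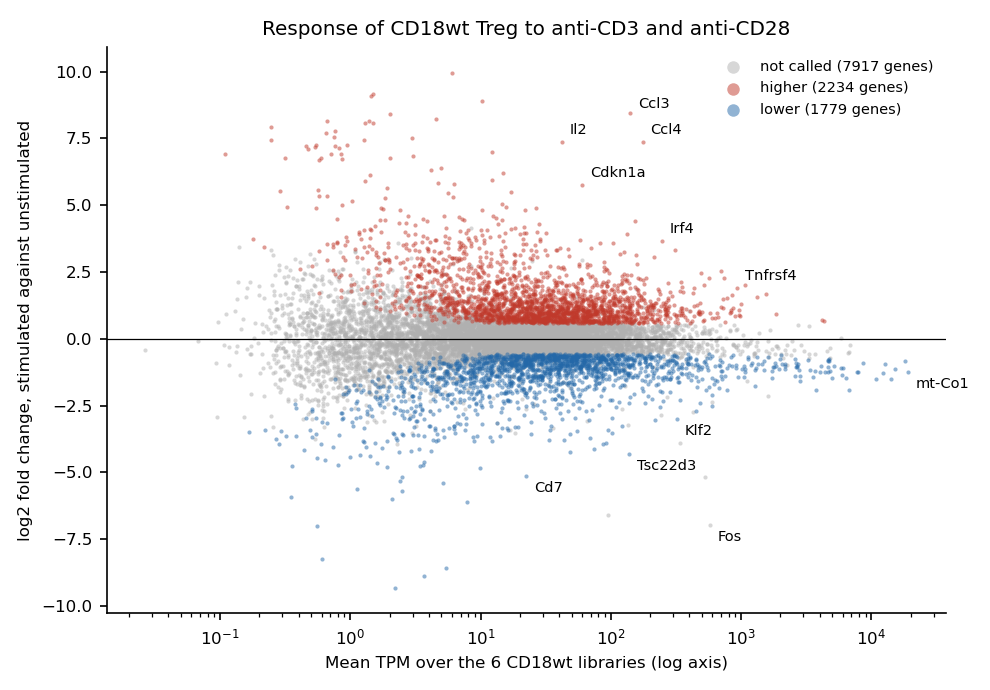
Each point is 1 of the 11930 genes tested, by its mean level over the 6 CD18wt libraries in TPM (log axis) and its log2 fold change in stimulated against unstimulated Treg. Red genes were called higher (2234), blue genes lower (1779) and grey genes were not called (7917). Genes without a read in one group stand at their fitted value, and Fos lies far below 0 without being called.

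The share of genes called higher depended on how libraries were scaled. The 100 most abundant genes held 47.42 to 48.82% of TPM in unstimulated and 32.88 to 36.06% in stimulated libraries. With TMM factors, used here, 55.7% of called genes were higher. Upper-quartile factors shifted log2 fold changes by a median of -0.08 and gave 1973 higher and 2045 lower genes (49.1% higher), and RLE factors 2163 and 1885 (53.4%). Scaling by library size alone shifted log2 fold changes by a median of 0.19 and gave 2849 higher and 1196 lower genes (70.4% higher). TPM, whose sum is the same in each library, shifted them by a median of 0.38 and gave 3589 higher and 858 lower genes with limma (80.7% higher). Levels are given for each library in the order of replicates 1 to 3 or as mean ± SD over 3 libraries, and values in parentheses after them are log2 fold changes ± SE. Log2 fold changes are relative to the TMM scale, whereas levels are in TPM, and a gene at equal TPM in both groups has a log2 fold change of about -0.4. Under this scaling shift the medians of the lists for effector transcription factors, NF-kappaB, the Myc network, the BCL2 family and the cytoskeleton, all between -0.23 and -0.03, turned positive on log2(TPM + 1). Against 18.7% higher and 14.9% lower among all genes tested, 26.1% of effector transcription factors were higher and 17.4% lower, and of NF-kappaB genes 23.5% and 11.8%. Of nuclear oxidative phosphorylation genes 14.3% were higher and 4.76% lower. List counts given below without these shares stand against the same 18.7% and 14.9%.

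Transcription factors of the early TCR response fell into 2 patterns. Of 23 tested members of this list 9 were called higher and 0 lower. Irf4 and Irf8, interferon regulatory factors that act with Batf in activated T cells, were among the largest rises. Irf4 was at 26.7, 26.1 and 30.6 TPM in unstimulated and 359, 473 and 568 TPM in stimulated libraries (log2 fold change 3.67 ± 0.19, adjusted p = 6.2e-08). Irf8 was at 12.8, 13.9 and 11.4 TPM in unstimulated and 146, 304 and 317 TPM in stimulated libraries (3.94 ± 0.31). For both genes every stimulated library lay far above every unstimulated one. Fosl1, the AP-1 subunit Fra-1, rose from 0.584 ± 0.295 to 33.7 ± 1.48 TPM (5.50 ± 0.37) and its relative Fosl2 from 3.45 ± 0.869 to 25.9 ± 4.8 TPM. The orphan nuclear receptors Nr4a3 and Nr4a2, direct targets of TCR signals, rose by 2.88 and 1.93 on the log2 scale, Egr2 and Egr3, which restrain T cell responses, by 1.12 and 1.06, and Ier3 by 3.22. Nr4a2 lost its call when any 1 of 4 libraries was left out and Ier3 when any 1 of 5 was (highest adjusted p = 0.037 and 0.049), where the log2 fold change of Ier3 ranged from 2.62 to 5.32 as libraries were left out.

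The classical immediate early genes did not follow this pattern. Fos, the AP-1 subunit, was at 1844, 1545 and 30.3 TPM in unstimulated and 17, 8.07 and 10.9 TPM in stimulated libraries. Unstimulated replicates 1 and 2 were thus roughly 2 orders of magnitude above the stimulated libraries, whereas unstimulated replicate 3 was at less than 2 times the highest of these. In the 3 unstimulated CD18Foxp3 libraries Fos was at 466 to 1038 TPM, so unstimulated CD18wt replicate 3 was the only one of 6 unstimulated libraries in the series with a low level. Fosb, Jun, Junb and the ERK and p38 phosphatase gene Dusp1 were also far lower in replicate 3 than in the other unstimulated libraries. Fosb was at 275, 288 and 2.41 TPM in unstimulated and 3.53, 2.51 and 1.43 TPM in stimulated libraries and Jun at 1013, 793 and 48.3 TPM in unstimulated and 74.6, 41 and 47 TPM in stimulated libraries. Junb was at 3423, 3711 and 311 TPM in unstimulated and 753, 767 and 627 TPM in stimulated libraries, with replicate 3 below all stimulated libraries. Dusp1 was at 1525, 1453 and 57.2 TPM in unstimulated and 38.8, 37.3 and 31.8 TPM in stimulated libraries. In none of these 5 genes did the difference between the groups pass the threshold, with a log2 fold change of -6.96 and an adjusted p of 0.035 for Fos. Without unstimulated replicate 3 all 5 were called lower, Fos with a log2 fold change of -7.54 (adjusted p = 7.2e-08), and DESeq2 called Fos, Fosb, Jun and Dusp1 lower with all libraries. The chemokine receptor gene Cxcr4, the NF-kappaB inhibitor gene Tnfaip3 and the Krüppel-like factor gene Klf6 were likewise lowest among unstimulated libraries in replicate 3, were not called, and were called lower without it. DESeq2 called these 3 genes lower with all libraries, and Cxcr4 and Klf6 were also called with the replicate block. Egr1 and Nr4a1 were also lowest in this library, Egr1 at 105, 126 and 57.3 TPM in unstimulated and 132, 156 and 145 TPM in stimulated libraries and Nr4a1 at 132, 161 and 50.7 TPM in unstimulated and 266, 269 and 411 TPM in stimulated libraries, but the stimulated libraries lay above all unstimulated ones. Nr4a1 passed the threshold without replicate 3 (log2 fold change 0.73) and Egr1 did not (-0.03).

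**Figure D2:**
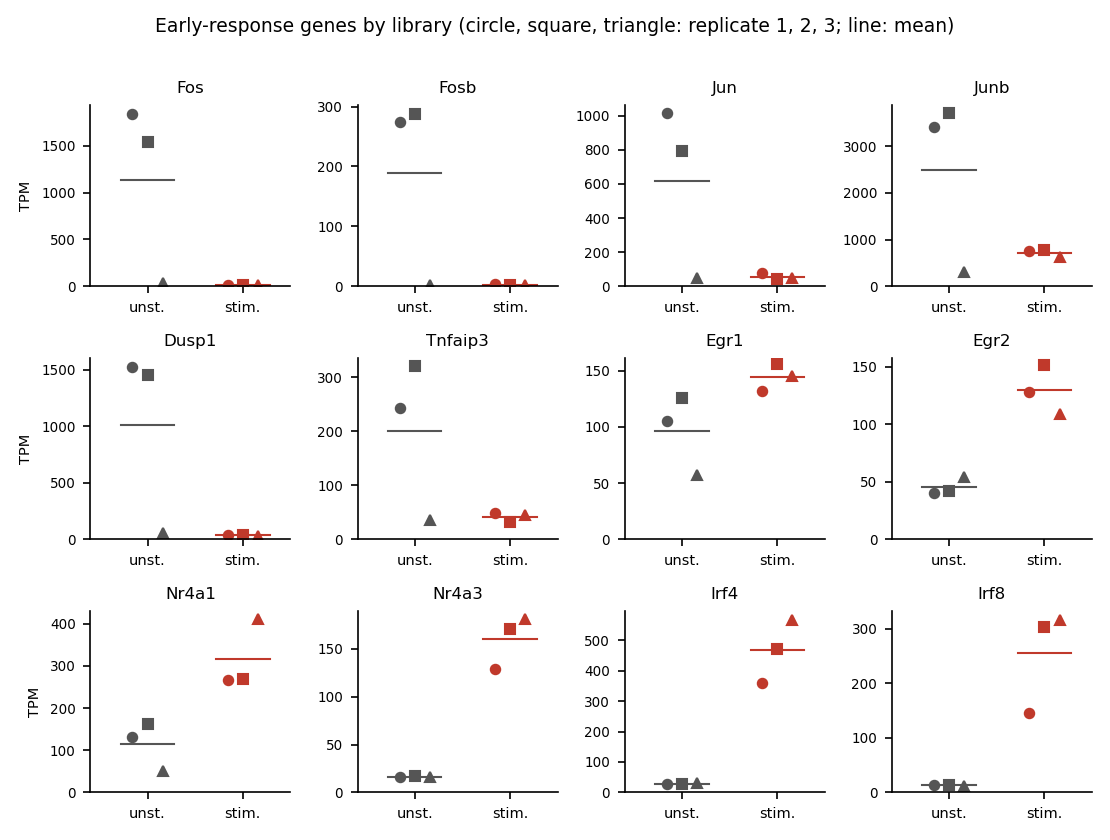
Level in TPM of 12 early-response genes in each CD18wt library, with unstimulated libraries in grey and stimulated ones in red. Symbols mark the replicate number and lines the group mean. Unstimulated replicate 3 (triangle) lies with the stimulated libraries for Fos, Fosb, Jun and Dusp1 and apart from replicates 1 and 2, whereas the 3 unstimulated libraries lie together for Egr2, Nr4a3, Irf4 and Irf8.

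Cytokine and chemokine genes held the 4 largest rises among genes with at least 10 TPM after stimulation and 80% of reads placed uniquely. Of 8 chemokine genes tested 5 were called higher and 2 lower. Ccl3 and Ccl4, which attract monocytes and T cells, were nearly silent in unstimulated Treg. Ccl3 was at 0.618, 0.969 and 0 TPM in unstimulated and 325, 402 and 121 TPM in stimulated libraries (log2 fold change 8.45 ± 0.86, adjusted p = 0.00047). Ccl4 was at 2.63, 0.45 and 1.87 TPM in unstimulated and 368, 489 and 190.1 TPM in stimulated libraries (7.38 ± 0.65). In both, stimulated replicate 3 was the lowest of the stimulated libraries and yet far above every unstimulated one. Ccl20, the ligand of Ccr6, rose from 0.252 ± 0.228 to 24.3 ± 9.78 TPM, Ccl1, the ligand of Ccr8, from 0.647 ± 0.344 to 13.3 ± 6.36 TPM, and Xcl1, which attracts cross-presenting dendritic cells, from 5.11 ± 3.66 to 59.6 ± 42.7 TPM. Xcl1 was not called without stimulated replicate 1 or unstimulated replicate 3 (adjusted p at most 0.024) or on log2(TPM + 1). Ccl5, another chemokine for T cells and monocytes, moved the other way and was at 58.1, 31.7 and 40.8 TPM in unstimulated and 8.65, 4.54 and 1.82 TPM in stimulated libraries (-3.55 ± 0.46). Cxcl10, an interferon-induced ligand of Cxcr3, fell from 14.3 ± 5.13 to 8.44 ± 3.17 TPM (-1.17 ± 0.32, adjusted p = 0.0082). This call was lost without any 1 of 4 libraries (adjusted p at most 0.06), with the replicate block and on log2(TPM + 1).

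Of 23 helper and inflammatory cytokine genes 15 had enough reads to be tested. Among these 6 were called higher and 3 lower, against 18.7% and 14.9% of all genes tested. The share called lower was thus near that of all genes tested, and the falls are those of single genes. Il3 had no read in the unstimulated libraries and was at 25.2, 24.9 and 11.1 TPM in the stimulated libraries, at least 63.0-fold higher when 3 reads over the unstimulated group are taken as the floor. Il2, the T cell growth factor that Foxp3 is known to repress, was at 0.551, 0 and 0.646 TPM in unstimulated and 141, 67.3 and 41 TPM in stimulated libraries (7.38 ± 0.79, adjusted p = 0.00015). Its level in stimulated libraries spanned more than 3-fold and was far above the unstimulated ones in each. Csf2, encoding GM-CSF, had 2 reads in the unstimulated and 137 in the stimulated group, a ratio of 69.2 after scaling to the group's reads (exact 95% interval 18.8 to 577, counting error only). Lif, a cytokine of the IL-6 family, rose from 2.64 ± 1.22 to 41.8 ± 15.7 TPM. The TNF family members Lta and Tnf were already expressed before stimulation. Lta, which encodes lymphotoxin alpha, was at 38.4, 39.9 and 52.7 TPM in unstimulated and 492, 640.5 and 584 TPM in stimulated libraries (3.32 ± 0.20), and Tnf rose from 18.2 ± 7.69 to 218 ± 67.7 TPM. Their partner Ltb, which encodes the membrane anchor of the lymphotoxin heterotrimer, fell from 1269 ± 77.4 to 759.6 ± 179 TPM (-1.14 ± 0.19), so that the level of Lta came close to that of Ltb. Csf1 and Il21 were called lower as well, by 1.24 and 2.10 on the log2 scale, of which Csf1 lost its call without any 1 of 4 libraries. Ifng was at 24.2, 35.4 and 7.42 TPM in unstimulated and 89, 103 and 66.3 TPM in stimulated libraries and did not pass the threshold (1.56 ± 0.48, adjusted p = 0.035). It passed without unstimulated replicate 3 (log2 fold change 1.18) and with the replicate block. Il17a, Il5, Il9 and Il22 had too few reads to be tested.

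Among mediators of suppression, 3 of 14 tested were called higher and 3 lower (21.4% each, near the 18.7% and 14.9% of all genes tested), so the values are those of single genes. Il10 was at 13.1, 20 and 7.33 TPM in unstimulated and 135, 89.2 and 126 TPM in stimulated libraries (2.69 ± 0.27), and Gzmb, encoding the protease granzyme B, at 3.4, 3 and 3.43 TPM in unstimulated and 38.5, 49.4 and 60 TPM in stimulated libraries (3.52 ± 0.27). Tgfb1 rose from 87.1 ± 9.21 to 198 ± 42.4 TPM (0.80 ± 0.18), and lost its call when any 1 of 4 libraries was left out (adjusted p at most 0.016). Prf1, which encodes the pore protein that delivers granzymes, fell from 10.9 ± 3.14 to 1.52 ± 0.659 TPM (-3.27 ± 0.39), opposite to Gzmb. Il1rn, the antagonist of IL-1, and Nt5e, the ectonucleotidase CD73, also fell, by 3.16 and 0.74, of which Il1rn was not called without unstimulated replicate 2 and Nt5e on log2(TPM + 1). Ebi3, Entpd1 and Lgals1 were not called.

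**Figure D3:**
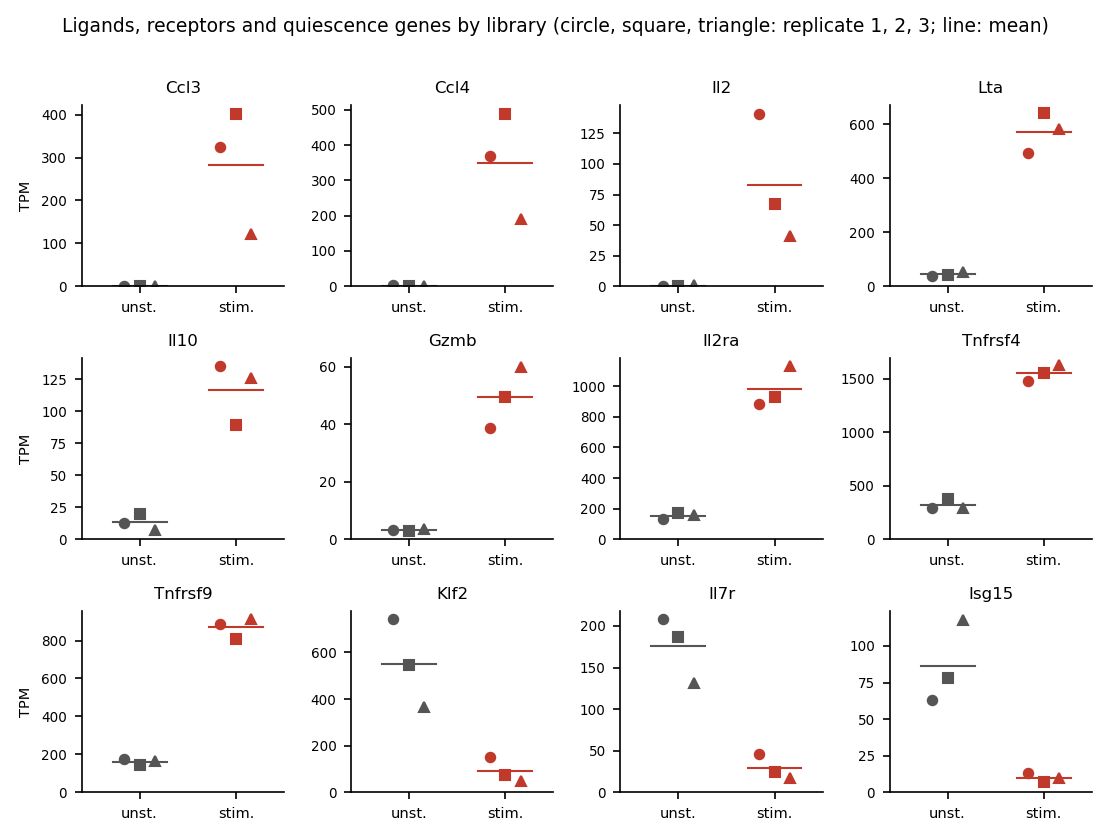
Level in TPM of 12 genes for ligands, receptors and quiescence factors in each CD18wt library (grey unstimulated, red stimulated, line group mean). For all 12 the stimulated libraries lie on one side of the unstimulated ones, as they do for 7394 of the 11930 genes tested. Among stimulated libraries Il2 ranges from 41 to 141 TPM and Tnfrsf4 from 1483 to 1625 TPM.

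Among the chains of the IL-2 receptor, the alpha chain alone was called higher. Il2ra was at 133, 170.2 and 156 TPM in unstimulated and 883, 926 and 1131 TPM in stimulated libraries (2.27 ± 0.16, adjusted p = 3.8e-07), while Il2rb was not called and Il2rg, the common gamma chain, fell from 638 ± 39.3 to 513 ± 36.4 TPM. On the Treg identity list Il2ra, Lrrc32 (GARP, which presents latent TGF-beta) and Capg were called higher, and Cd4 and Izumo1r (folate receptor 4) lower, out of 13 genes. These shares (23.1% and 15.4%) were near the 18.7% and 14.9% of all genes tested, so the values are those of single genes. Capg lost its call without any 1 of 4 libraries (adjusted p at most 0.03) and with the replicate block (adjusted p = 0.029). Lrrc32 rose from 47.4 ± 13.9 to 211 ± 42.7 TPM. Foxp3 itself had a log2 fold change of 0.37 ± 0.14 (adjusted p = 0.042) and was not called, although all stimulated libraries exceeded the unstimulated ones in TPM. The log2 fold change was 0.35 for Ikzf2 (Helios) and 1.02 for Ctla4 (adjusted p = 0.053), neither of them called. On log2(TPM + 1) Foxp3 and Ikzf2 were called higher.

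Of 13 genes of the TNF receptor superfamily 4 were called higher and 4 lower (30.8% each, against 18.7% and 14.9% of all genes tested). The 4 called higher were Tnfrsf4, Tnfrsf9, Tnfrsf8 and Tnfrsf18, which encode costimulatory receptors of activated T cells. Tnfrsf4 (OX40) was at 290.3, 373 and 291 TPM in unstimulated and 1483, 1553 and 1625 TPM in stimulated libraries (1.89 ± 0.14) and was among the most abundant genes called higher. Tnfrsf9 (4-1BB) was at 175, 147 and 164 TPM in unstimulated and 886, 808 and 915 TPM in stimulated libraries (2.02 ± 0.14). Tnfrsf8 (CD30) rose from 13.4 ± 2.87 to 49.1 ± 7.62 TPM and Tnfrsf18 (GITR) from 367 ± 78.7 to 826 ± 67 TPM. Cd27, a receptor of resting T cells, fell from 278 ± 23.9 to 174 ± 28.4 TPM, Tnfrsf26 from 32.6 ± 4.1 to 23.7 ± 5 TPM and the death receptor gene Fas from 63 ± 5.59 to 49.8 ± 5.57 TPM. Tnfrsf1a was also called lower (-0.61), a call lost with the replicate block and without any 1 of 5 libraries. On log2(TPM + 1) the calls of Tnfrsf26, Fas and Tnfrsf1a were lost. Among 19 coinhibitory and costimulatory receptors and ligands 4 were called higher, Cd200, Cd274 (PD-L1), Pdcd1lg2 (PD-L2) and Icos, and 6 lower (21.1% and 31.6%, against 18.7% and 14.9% of all genes tested). Icos lost its call with the replicate block and without any 1 of 3 libraries, and Pdcd1lg2 without either of 2 (adjusted p at most 0.019 and 0.021). Cd200, Cd274 and Pdcd1lg2 rose by 1.44, 0.96 and 0.83 on the log2 scale. Cd96, Cd86 and Cd160 fell by 2.08, 1.74 and 1.67 on the log2 scale, and Slamf6, Cd83 and Lag3 were lower too. Pdcd1, which encodes PD-1, Tigit and Cd28 were not called.

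The lineage factors of effector Treg did not move as one. Of 23 tested 6 were called higher and 4 lower. Apart from Irf4, these were Tbx21 (T-bet), which rose from 14.4 ± 1.07 to 75.7 ± 18.3 TPM (2.01 ± 0.22), Zeb2, which partners T-bet and rose from 0.16 ± 0.139 to 1.3 ± 0.327 TPM, and Prdm1 (Blimp-1), Nfil3 and Stat5a, which rose by 0.73, 0.68 and 0.65. Prdm1 lost its call without any 1 of 5 libraries, Nfil3 of 3 and Stat5a of 2 (adjusted p at most 0.052, 0.025 and 0.011). Bcl6, the repressor that defines follicular T cells and opposes Blimp-1, was at 26.1, 23.9 and 21.9 TPM in unstimulated and 6.62, 2.52 and 5.33 TPM in stimulated libraries (-2.75 ± 0.25). Maf, Stat4 and Ikzf3 fell by 1.46, 1.38 and 1.05 on the log2 scale. Gata3, Rora, Ahr and Batf were not called.

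Feedback genes of cytokine and ERK signalling rose in part. Of 11 genes for SOCS proteins, CISH and PIM kinases, which are induced by STAT5 and other cytokine signals, 6 were called higher and 1 lower. Socs2, Cish and Socs1 rose by 2.62, 1.80 and 1.66 on the log2 scale, and the kinase genes Pim3, Pim2 and Pim1 by 1.57, 1.28 and 0.90. Cish was not called without stimulated replicate 3, nor Socs1 without stimulated replicate 2 or unstimulated replicate 1 (adjusted p at most 0.015 and 0.024). Socs3, the feedback inhibitor of IL-6 family receptors, fell from 86.1 ± 35 to 51.8 ± 8.78 TPM, a call lost without any 1 of 4 libraries (adjusted p at most 0.035) and on log2(TPM + 1). Of 13 ERK phosphatase and Sprouty family genes 5 were called higher and 1 lower (38.5% and 7.69%, against 18.7% and 14.9% of all genes tested), and 7 were not called. Dusp4 rose from 50 ± 20.9 to 303 ± 12.6 TPM, and Spred1 and Dusp16 rose by 1.46 and 1.35 on the log2 scale, while Dusp10 fell by 1.18. Of 17 NF-kappaB genes 4 were called higher and 2 lower. Rel (c-Rel), Nfkbid (IkappaBNS) and Nfkbib rose by 1.65, 1.42 and 1.24 on the log2 scale, and Nfkb2 rose from 93.9 ± 2.63 to 288 ± 45.1 TPM. Birc2 and Bcl3 fell by 1.10 and 0.71 on the log2 scale, and Rela and Nfkbia were not called. On log2(TPM + 1) 5 genes of this list were higher and 0 lower, and Bcl3 also lost its call without either of 2 libraries.

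Genes for the making of ribosomes rose almost throughout. Myc, the transcription factor that drives cell growth, was at 76.1, 115 and 47.6 TPM in unstimulated and 284, 369 and 485 TPM in stimulated libraries (1.87 ± 0.31, adjusted p = 0.0016). Without stimulated replicate 2 or 3 or unstimulated replicate 1 the adjusted p of Myc rose to at most 0.013, with log2 fold changes of 1.63 to 2.20 over the 6 libraries left out in turn. Its dimer partner Max was not called, and Mxd4, an antagonist that competes with Myc for Max, fell from 81.6 ± 7.56 to 29.3 ± 9.08 TPM. Myc and Mxd4 were the only 2 of 10 tested Myc network genes called (10.0% higher and 10.0% lower, against 18.7% and 14.9% of all genes tested). Of 38 ribosome biogenesis genes 37 were called higher and 0 lower (median log2 fold change 1.43, against 0.02 over all genes tested). Gnl3, Rrp12 and Nop2 rose by 2.37, 2.10 and 2.07 on the log2 scale. Npm1 and Ncl, which encode abundant nucleolar proteins, rose from 1051 ± 96.5 to 2622 ± 409 TPM and from 219 ± 18.3 to 698 ± 176 TPM. The summed level of the list was 2915 to 3313 TPM in unstimulated and 8377 to 11443 TPM in stimulated libraries. Nop10, a core protein of box H/ACA particles, was the 1 member not called. Of 25 translation factors 14 were called higher and 1 lower. Eif2b3, Eif5a and Eef1e1 rose by 1.79, 1.68 and 1.66 on the log2 scale, and Eif5a reached 2269.7, 2784 and 2453 TPM in stimulated libraries. Eef1a1, the elongation factor and one of the most abundant transcripts of these cells, was at 20616, 20366 and 20930.5 TPM in unstimulated and 14651, 16023 and 15204 TPM in stimulated libraries (-0.83 ± 0.16, not called on log2(TPM + 1)).

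The proteins of the ribosome itself took the opposite direction at the RNA level. Of 77 cytosolic ribosomal protein genes 0 were called higher and 55 lower, with a median log2 fold change of -0.93. Their summed level was 224195, 231974 and 274341 TPM in unstimulated and 162736, 175450.3 and 168567 TPM in stimulated libraries, without overlap. Rps27, Rps15a and Fau, which encodes Rps30 fused to a ubiquitin-like protein, fell by 1.91, 1.53 and 1.46 on the log2 scale. Rps12 had the highest value, a log2 fold change of 0.62, and was not called. The median stayed below 0 under each scaling. It was -0.73 with library size alone, with 47 genes lower, and -0.52 on log2(TPM + 1), with 29 lower. Transcripts of the mitochondrial genome also lost share. Of 13 genes 8 were called lower and 0 higher, mt-Atp6, mt-Atp8 and mt-Cytb by 1.52, 1.49 and 1.46 on the log2 scale. mt-Co1, the most abundant gene called lower, was at 28522, 25906 and 19535 TPM in unstimulated and 14273, 15623 and 10716 TPM in stimulated libraries. Their sum was 138829.6, 138749 and 93910.4 TPM in unstimulated and 72498, 82616 and 63848 TPM in stimulated libraries. Unstimulated replicate 3 lay between the other unstimulated libraries and the stimulated ones, and mt-Atp8 was at 18166, 18862 and 7482 TPM in unstimulated and 6604, 7656 and 6193 TPM in stimulated libraries, where the groups overlap and the call was lost without any 1 of 5 libraries. Of 42 nuclear genes of oxidative phosphorylation 6 were called higher, among them Cyc1, Ndufab1 and Cycs with rises of 1.18, 0.99 and 0.99, and 2 lower, Ndufa6 and Cox4i1, neither of which was called on log2(TPM + 1). Cox4i1 was not called with the replicate block either. The count of this list depended on the scaling, with 14 higher by library size alone. With limma on log2(TPM + 1), which changes both the scale and the test, 21 were higher, and 11 were higher without unstimulated replicate 3.

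**Figure D4:**
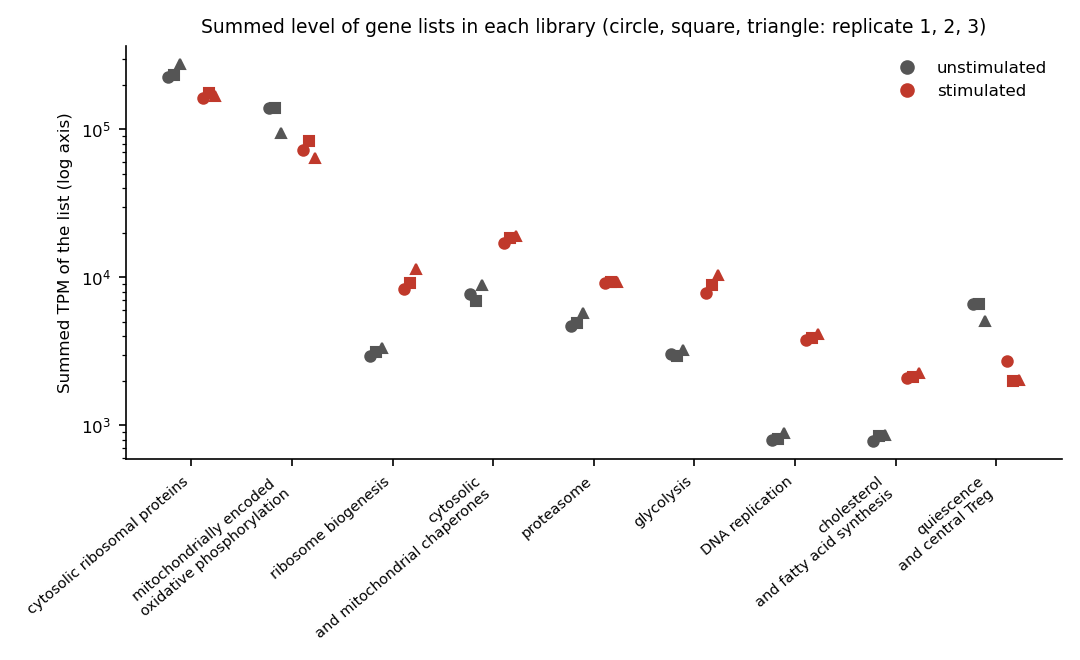
Summed TPM (log axis) of the members of 9 gene lists in each CD18wt library, with unstimulated libraries in grey, stimulated ones in red and symbols for the replicate number. The sums for ribosomal proteins (224195 to 274341 against 162736 to 175450.3 TPM) and the mitochondrial genome lie lower in stimulated Treg, those for ribosome biogenesis, chaperones, proteasome, glycolysis, DNA replication and cholesterol synthesis higher.

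Of 22 glycolysis genes 14 were called higher and 2 lower (median log2 fold change 0.98). Hk2, the inducible hexokinase that starts glucose breakdown, was at 2.43, 2.46 and 3.92 TPM in unstimulated and 43.1, 51.5 and 86.9 TPM in stimulated libraries (3.97 ± 0.32), whereas Hk1 was not called. Pgam1 rose from 121 ± 4.14 to 868 ± 96.5 TPM, and the lactate transporter genes Slc16a3 and Slc16a1 rose by 2.36 and 2.36 on the log2 scale. Ldha and Pkm, the last enzymes of aerobic glycolysis, were among the 10 most abundant genes called higher and rose from 473 ± 20.2 to 1529 ± 204 TPM and from 509.8 ± 51.5 to 1411 ± 170.1 TPM. Ldhb, the lactate dehydrogenase subunit that favours pyruvate, fell from 112 ± 0.8 to 86.9 ± 5.06 TPM. The glucose transporters split, as Slc2a1 (GLUT1) rose from 36.7 ± 5.31 to 117 ± 23.7 TPM and Slc2a3 (GLUT3) fell from 31.5 ± 5.66 to 18.9 ± 2.39 TPM.

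Nucleotide and one-carbon synthesis genes were called higher in 19 and lower in 2 of 23 cases (median log2 fold change 1.20). Shmt1, which feeds one-carbon units from serine into thymidylate synthesis, was at 4.67, 7.22 and 7.1 TPM in unstimulated and 89.9, 117 and 119.8 TPM in stimulated libraries (3.71 ± 0.21). Ctps and Shmt2 rose by 2.80 and 2.25 on the log2 scale, while the paralogs Ctps2 and Prps2 fell by 1.24 and 0.77 on the log2 scale, so that the 2 CTP synthase genes moved in opposite directions. Of 11 amino acid transporter genes 6 were called higher and 1 lower. Slc7a5, the transporter of large neutral amino acids, rose from 33.4 ± 6.27 to 231 ± 37.7 TPM, and Slc7a1 and Slc1a5, which carry arginine and glutamine, rose by 1.74 and 1.27 on the log2 scale. Slc43a2 fell from 18.7 ± 0.586 to 11.4 ± 2.47 TPM. Of 28 genes for tRNA synthetases and the ATF4 program, which answers amino acid shortage and is also driven by mTORC1, 22 were called higher and 2 lower. Asns, asparagine synthetase, was at 2.13, 2.01 and 1.71 TPM in unstimulated and 31.6, 29.8 and 61.8 TPM in stimulated libraries (3.97 ± 0.29), and Iars and Cars rose by 2.05 and 1.98 on the log2 scale. Ddit4, an inhibitor of mTORC1, fell from 387 ± 119 to 192 ± 3.88 TPM, and the stress gene Ddit3 (CHOP, counted under the entry Ddit3_1) by 1.16 on the log2 scale.

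Of 30 genes of cholesterol and fatty acid synthesis 20 were called higher and 2 lower (median log2 fold change 1.20). Idi1, an enzyme of the mevalonate pathway, was at 13.9, 19.5 and 21.8 TPM in unstimulated and 223, 211 and 261 TPM in stimulated libraries (3.25 ± 0.18), and Cyp51, Hmgcs1 and Sqle rose by 2.70, 1.96 and 1.96 on the log2 scale. Fasn, fatty acid synthase, rose from 37.4 ± 5.09 to 184 ± 17.1 TPM. The 2 members called lower, Abca1 and Abcg1, export cholesterol from cells and are targets of liver X receptors. Abca1 was at 5.16, 4.55 and 4.32 TPM in unstimulated and 0.1, 0.185 and 0.15 TPM in stimulated libraries (-5.34 ± 0.32) and Abcg1 at 71.8, 59.7 and 73.4 TPM in unstimulated and 22.1, 10.8 and 7.39 TPM in stimulated libraries (-2.77 ± 0.40, not called without stimulated replicate 2).

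At each stage of the cell cycle from G1 to mitosis more genes were called higher than lower. Of 19 G1 genes 11 were called higher and 3 lower. The cyclin E genes Ccne2 and Ccne1 rose by 4.59 and 3.31 on the log2 scale, E2f1 by 3.10 and Ccnd2 by 1.06. Cdkn1a, encoding the kinase inhibitor p21 and a target of p53, was at 1.95, 1.75 and 1.25 TPM in unstimulated and 124, 141 and 92 TPM in stimulated libraries (5.76 ± 0.25) and had the largest rise of the list, whereas the inhibitor genes Cdkn2d and Cdkn1b (p27) and the pocket protein gene Rbl2 fell by 1.45, 0.88 and 1.21 on the log2 scale, of which Cdkn2d alone was called on log2(TPM + 1). All 31 DNA replication genes were called higher (median log2 fold change 2.13), under each of the scalings tried. Orc1, of the origin recognition complex, was at 0.861, 0.768 and 0.92 TPM in unstimulated and 24.6, 22.2 and 30 TPM in stimulated libraries. Cdc6, which loads the replicative helicase, was at 0.965, 1.16 and 2.26 TPM in unstimulated and 26.5, 32.4 and 28.3 TPM in stimulated libraries, and Mcm10, which activates it, at 0.451, 0.694 and 0.416 TPM in unstimulated and 18.8, 18 and 22.8 TPM in stimulated libraries. All 3 were below 3 TPM before and at 18 TPM or more after stimulation. Rrm2, the subunit of ribonucleotide reductase made in S phase, rose from 12.4 ± 1.83 to 195 ± 21 TPM and Pcna, the sliding clamp, from 222 ± 12.5 to 738 ± 26.6 TPM. Of 22 mitosis genes 21 were called higher and 0 lower (median 2.94). Aurkb, Cdk1 and Ccna2 rose by 4.28, 3.93 and 3.75 on the log2 scale, and Mki67 was at 4.03, 3.85 and 5.36 TPM in unstimulated and 54.3, 34.7 and 59.3 TPM in stimulated libraries. In unstimulated Treg the sum of the mitosis list was 67.1 and 71.9 TPM in replicates 1 and 2 and 129 TPM in replicate 3, against 714 to 878 TPM in stimulated Treg.

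Among genes for protein folding and degradation more were called higher than lower. Of 23 cytosolic and mitochondrial chaperones 15 were called higher and 0 lower. Hspd1, the mitochondrial chaperonin Hsp60, rose from 199 ± 24.5 to 1272 ± 160.3 TPM, and Hspa9 and Cct6a rose by 1.73 and 1.51 on the log2 scale. The stress-induced genes Hspa1a and Hspa1b varied widely among unstimulated libraries, Hspa1a at 43.5, 0.6 and 25.6 TPM in unstimulated and 4.29, 3.82 and 2.29 TPM in stimulated libraries, and were not called. Of 32 proteasome genes 21 were called higher and 2 lower. Psme3, Psmd1 and Psmc1 rose by 1.38, 1.20 and 1.18 on the log2 scale. The 2 lower genes, Psmb10 and Psmb9, encode subunits of the interferon-induced immunoproteasome and fell by 1.04 and 0.85 on the log2 scale (not called on log2(TPM + 1)), while Psmb5, Psmb6 and Psmb7, which encode catalytic subunits of the constitutive proteasome, rose by 0.84, 0.66 and 0.79 on the log2 scale (Psmb6 not called without any 1 of 3 libraries). The third immunoproteasome subunit, Psmb8, was not called (-0.47). Of 20 ER chaperone and unfolded protein response genes 6 were called higher (30.0%, against 18.7% of all genes tested) and 14 were not called. The rises were led by Sdf2l1 (from 51.2 ± 6.11 to 255 ± 49.2 TPM), Creld2 and Hyou1, and Hspa5 (BiP) was not called. Without unstimulated replicate 3 there were 9 higher and 1 lower, with library size alone 12 higher and on log2(TPM + 1) 13 higher.

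**Figure D5:**
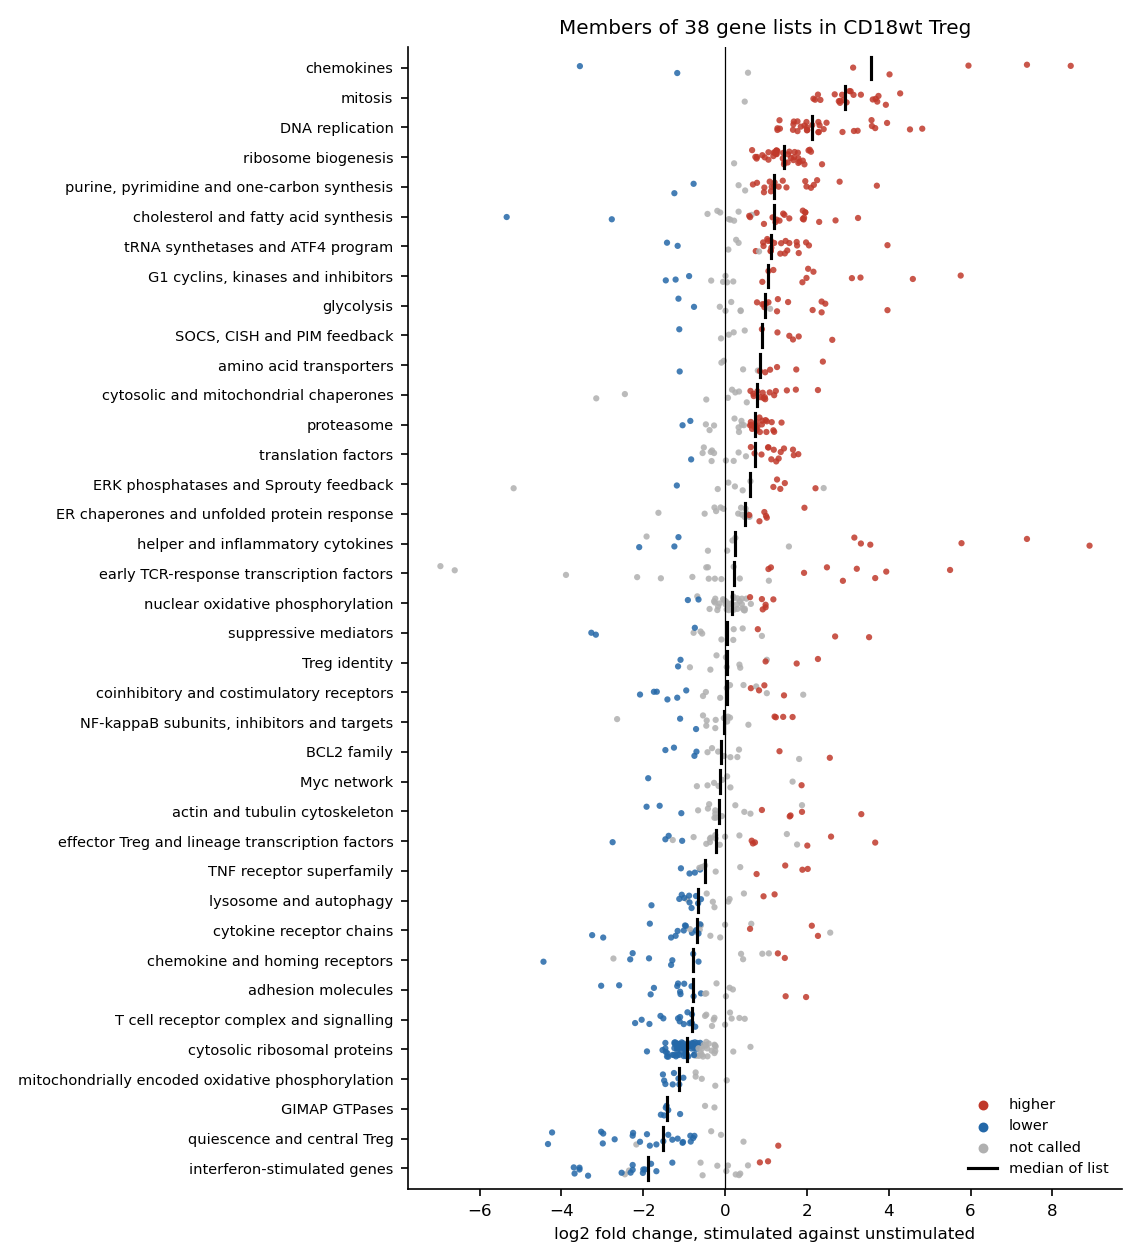
Log2 fold change of each tested member of 38 gene lists in stimulated against unstimulated CD18wt Treg, with red for genes called higher, blue for lower, grey for not called and a black bar for the median of the list. Lists are ordered by their median, from interferon-stimulated genes (-1.88) to chemokines (3.58), and Il3, without a read in unstimulated Treg, stands at its fitted value.

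Most genes of the quiescence list fell. Of 27 genes that mark resting and central Treg 22 were called lower and 1 higher (median log2 fold change -1.51). Klf2, which maintains the egress and homing receptors of resting T cells, was at 741, 544 and 367 TPM in unstimulated and 150.2, 74.6 and 48.6 TPM in stimulated libraries (-2.99 ± 0.50, adjusted p = 0.0046), and without stimulated replicate 2 or unstimulated replicate 1 or 2 its adjusted p was at most 0.033. The log2 fold change of Klf2 stayed between -3.51 and -2.69 with any library left out. Tsc22d3 (GILZ), a target of Foxo factors and glucocorticoids, was at 233, 318 and 223 TPM in unstimulated and 29.2, 10 and 12.5 TPM in stimulated libraries (-4.33 ± 0.43). Pik3ip1, an inhibitor of PI3-kinase, was at 95.7, 100.4 and 76.9 TPM in unstimulated and 7.53, 6.12 and 5.58 TPM in stimulated libraries (-4.23 ± 0.17). Il7r, the survival receptor of resting T cells, fell from 175 ± 39.3 to 29.4 ± 15.4 TPM. S1pr1, which guides exit from lymphoid organs, fell from 326 ± 36.4 to 90.5 ± 37.2 TPM, Txnip, an inhibitor of glucose uptake, from 746 ± 180.5 to 151 ± 87.6 TPM (not called without any 1 of 4 libraries), Foxo1 from 97 ± 4.29 to 49.2 ± 7.16 TPM and Tcf7 (TCF-1) from 973 ± 109.7 to 451 ± 74.5 TPM. Bach2, a repressor that keeps Treg in the central state, was the exception and was at 13.6, 17.2 and 12 TPM in unstimulated and 39.2, 44.1 and 55.6 TPM in stimulated libraries (1.30 ± 0.16). The 6 GIMAP GTPase genes called lower, of 8 tested, included Gimap7, Gimap1 and Gimap3, which fell by 1.57, 1.49 and 1.45 on the log2 scale.

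Of 15 chemokine and homing receptors 8 were called lower and 2 higher (5 lower and 4 higher on log2(TPM + 1)). Cxcr5, which leads T cells to B cell follicles, was at 95.1, 93.2 and 88.5 TPM in unstimulated and 19.3, 30.6 and 22.2 TPM in stimulated libraries (-2.32 ± 0.19). Ccr9, the gut-homing receptor, fell from 1.88 ± 0.325 to 0.115 ± 0.106 TPM, Cxcr3 from 176 ± 19.7 to 94.1 ± 17.9 TPM and Ccr7 from 337 ± 35.1 to 259.9 ± 40.5 TPM. The 2 rises were those of Ccr8 and Ccr4, receptors of skin and tissue Treg. Ccr8 was at 79.3, 90.9 and 41.5 TPM in unstimulated and 259, 249 and 259 TPM in stimulated libraries (1.46 ± 0.21), and Ccr4 rose from 34.2 ± 2.73 to 111 ± 4.52 TPM. Of 20 adhesion genes 12 were called lower, among them Itgb2 itself (-0.77 ± 0.13, adjusted p = 0.00029, not called with library size alone or on log2(TPM + 1)), its partner Itgal, which fell from 469 ± 55.8 to 288 ± 20.5 TPM, and Itgb3, Itgb7 and Itgae (CD103), which fell by 2.59, 1.82 and 1.74 on the log2 scale (Itgae not called without stimulated replicate 2). Alcam and Itgav were called higher and rose by 1.98 and 1.48 on the log2 scale. Of 20 cytoskeleton genes 5 tubulin genes were called higher, Tubb6, Tuba1c and Tubb4b by 3.33, 1.88 and 1.60, (5 of 20, against 18.7% of all genes tested, and 8 genes on log2(TPM + 1)), and 3 lower (15.0%, against 14.9%), Tmsb4x, Tmsb10 and Coro1a, which fell by 1.92, 1.60 and 1.07 on the log2 scale.

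Components of the antigen receptor itself were among the genes that fell. Of 25 genes of the TCR complex and its signalling 15 were called lower and 0 higher (median log2 fold change -0.81). Cd3d, Cd3g, Cd3e and Cd247, the 4 chains that signal for the receptor, fell by 1.85, 1.58, 0.87 and 1.01 on the log2 scale. Cd3d was at 942, 815 and 1214 TPM in unstimulated and 389.9, 378 and 325 TPM in stimulated libraries. On log2(TPM + 1) 8 genes of the list were lower and 2 higher, and Cd3e and Lck were not called. Sh2d1a (SAP), Themis and the kinase gene Prkcq fell by 2.20, 2.04 and 1.51 on the log2 scale, and Lck fell from 779 ± 46.5 to 585 ± 14.3 TPM. Zap70, Lat and Lcp2, a proximal kinase and adaptors, were not called. Of 24 cytokine receptor chains 13 were called lower and 3 higher, with 8 lower by library size alone and 7 on log2(TPM + 1). Il9r, Il7r and Il6ra fell by 3.25, 2.98 and 1.84 on the log2 scale, and both chains of the type I interferon receptor, Ifnar1 and Ifnar2, were lower, by 0.65 and 1.01, though Ifnar1 was not called without stimulated replicate 2 or unstimulated replicate 2 or on log2(TPM + 1). Il12rb1 rose from 22.8 ± 1.96 to 130.5 ± 16.8 TPM and Tgfbr1 from 25.8 ± 1.49 to 51.8 ± 2.77 TPM (not called without any 1 of 3 libraries), while Tgfbr2 fell from 118 ± 12.4 to 62.3 ± 12 TPM. Of 14 genes of the BCL2 family 2 were called higher and 4 lower (14.3% and 28.6%, against 18.7% and 14.9% of all genes tested). On log2(TPM + 1) 5 were higher and 1 lower. The 2 called higher were the survival gene Bcl2l1 (Bcl-xL), from 21.2 ± 2.35 to 165 ± 9.21 TPM, and the death gene Bax, from 102 ± 8.68 to 339 ± 18.4 TPM. Bcl2l11 (Bim), Bmf, Bcl2 and Mcl1 fell by 1.46, 1.25, 0.75 and 0.70 on the log2 scale, of which Bcl2l11 alone was called on log2(TPM + 1). Bcl2 lost its call without any 1 of 5 libraries and Bmf without either of 2 and with the replicate block. Of 19 lysosome and autophagy genes 10 were called lower and 2 higher. Ctss, Lipa and Ctsd fell by 1.80, 1.12 and 1.06 on the log2 scale, and Gabarapl1 and Ctsz were higher. On log2(TPM + 1) only 3 genes of this list were called lower.

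More interferon-stimulated genes were lower than higher. Of 28 tested 15 were called lower and 2 higher (median log2 fold change -1.88, -0.98 on log2(TPM + 1) with 13 lower and 6 higher). Isg15, the ubiquitin-like modifier, was at 63.4, 78.1 and 118 TPM in unstimulated and 13, 6.91 and 9.75 TPM in stimulated libraries (-3.56 ± 0.32, adjusted p = 1.9e-06). Ifit3, a sensor of viral RNA complexes, was at 17, 23.3 and 24 TPM in unstimulated and 3.27, 1.7 and 1.78 TPM in stimulated libraries (-3.68 ± 0.34) and Rsad2 (viperin) at 4.07, 3.9 and 4.26 TPM in unstimulated and 0.419, 0.322 and 0.492 TPM in stimulated libraries. In each of the 3 genes the groups were far apart. Oasl1 had the same rounded log2 fold change as Isg15 with a larger error (-3.56 ± 0.67). Irf7 and Irf9, which carry the type I interferon response, fell by 2.31 and 1.29 on the log2 scale, and Ifi27l2a, the most abundant member called lower, fell from 975 ± 36 to 222 ± 46.2 TPM. The 2 members called higher were Gbp2 and Iigp1, GTPases strongly induced by interferon gamma, which rose by 1.05 and 0.85 on the log2 scale. Gbp2 lost its call without any 1 of 4 libraries (adjusted p at most 0.016), and without unstimulated replicate 3 1 member was higher. Irf1, Igtp, Irgm1 and Gbp3 were not called.

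As members of several lists moved together, the 250 bases before the transcription start were searched in the RefSeq promoter table (GRCm38.p6, 32851 promoters of 27025 genes) for the letters of motifs known for each pathway, on both strands. The clearest case was GAAANNGAA, the core of the interferon-stimulated response element, where N is any base. It stood in 14 of the 21 interferon-stimulated genes matched (66.7%), against 8.18% of all genes and 7.13% of all promoters. Of these 14 genes 6 were called lower, 1 higher and 7 were not called, so the letters were present in genes of both directions. Over the whole list 15 of 28 tested genes were called lower, so genes with the letters were not lower more often. The windows of Ifit3 (chr19:34583279-34583528, plus strand), Isg15 (chr4:156200819-156201068, minus strand) and Rsad2 (chr12:26456453-26456702, minus strand) are shown because these were the 3 largest falls of the list with the motif. All windows run 5′ to 3′ on the strand of the gene and end at the base before the start, and capitals mark the motif or its reverse complement.
Ifit3: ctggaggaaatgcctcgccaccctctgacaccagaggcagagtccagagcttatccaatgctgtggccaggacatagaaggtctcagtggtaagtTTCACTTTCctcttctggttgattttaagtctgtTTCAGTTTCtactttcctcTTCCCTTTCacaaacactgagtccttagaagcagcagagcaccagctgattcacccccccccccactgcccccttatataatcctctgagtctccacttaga
Isg15: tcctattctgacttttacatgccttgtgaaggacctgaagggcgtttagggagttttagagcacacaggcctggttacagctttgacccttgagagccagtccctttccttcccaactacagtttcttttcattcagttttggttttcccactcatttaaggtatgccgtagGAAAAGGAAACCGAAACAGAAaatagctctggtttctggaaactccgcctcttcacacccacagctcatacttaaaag
Rsad2: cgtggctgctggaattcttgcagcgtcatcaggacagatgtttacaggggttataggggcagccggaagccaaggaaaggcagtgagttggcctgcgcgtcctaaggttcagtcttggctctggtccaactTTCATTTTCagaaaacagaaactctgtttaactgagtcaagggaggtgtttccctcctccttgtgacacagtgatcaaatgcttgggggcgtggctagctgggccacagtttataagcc

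The E2F letters TTTCCCGC and TTTGGCGC stood in 2 and 3 of 26 matched DNA replication genes (7.69% and 11.5%), against 1.03% and 0.485% of all genes. The windows of Cdc6 (chr11:98907901-98908150, plus strand) and Mcm5 (chr8:75109259-75109508, plus strand) are shown as the largest rise with each, and in both the capitals mark the E2F letters. The letters TCACCCCAC, a sterol regulatory element, stood in 1 of 21 matched genes of cholesterol and fatty acid synthesis (4.76%, against 0.555% of all genes), which was Hmgcs1 (chr13:119690101-119690350, plus strand, log2 fold change 1.96).
Cdc6: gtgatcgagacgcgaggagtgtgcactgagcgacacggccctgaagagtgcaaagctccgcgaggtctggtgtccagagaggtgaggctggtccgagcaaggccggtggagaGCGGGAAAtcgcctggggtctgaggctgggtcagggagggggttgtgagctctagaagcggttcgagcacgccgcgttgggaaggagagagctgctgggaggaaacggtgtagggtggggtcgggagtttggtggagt
Mcm5: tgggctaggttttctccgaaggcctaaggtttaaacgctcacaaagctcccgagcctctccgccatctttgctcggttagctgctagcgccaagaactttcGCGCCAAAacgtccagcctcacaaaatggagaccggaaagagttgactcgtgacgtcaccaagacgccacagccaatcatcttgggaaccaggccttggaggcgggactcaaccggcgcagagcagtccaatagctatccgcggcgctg
Hmgcs1: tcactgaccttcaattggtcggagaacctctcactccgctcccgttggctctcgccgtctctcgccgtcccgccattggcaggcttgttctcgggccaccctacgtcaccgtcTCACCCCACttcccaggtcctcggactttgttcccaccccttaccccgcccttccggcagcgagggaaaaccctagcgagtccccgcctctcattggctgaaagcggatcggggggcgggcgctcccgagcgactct

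The ETS letters CCGGAAG stood in 8 of 27 matched proteasome genes (29.6%) and 3 of 32 nuclear genes of oxidative phosphorylation (9.38%), against 7.83% of all genes. The E-box CACGTG stood in 2 of 33 matched ribosome biogenesis genes (6.06%), close to the 6.86% of all genes, in 4 of 21 genes of nucleotide and one-carbon synthesis (19%) and in 3 of 11 of the Myc network (27.3%). The NF-kappaB letters GGGANNTTC stood in 2 of 14 genes of that list (14.3%, against 3.7%). The ATF4-related letters ATTGCATCA and TGATGNAAT stood in 1 and 2 of 21 genes (4.76% and 9.52%, against 0.192% and 0.91%), where the second contains the reverse complement of the first, and the AP-1 and CRE letters TGAGTCA and TGACGTCA in 1 of 18 early TCR-response genes each (5.56%, against 5.16% and 1.77%). In Isg15 the 3 copies of the motif overlap and appear as 1 run of capitals. These shares describe letters in a short window and not binding.

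Beyond the lists, the 20 largest rises among genes at 10 TPM or more in the higher group also held Crabp2, which carries retinoic acid, Cyp1a1, the classical target of the aryl hydrocarbon receptor, Bcat1, a branched-chain amino acid transaminase, Sema7a, Pdgfb, the metallothionein gene Mt1, the calcium sensor gene Ncs1, Mtfr2 and the DNA repair gene Rad51ap1. Crabp2 had 3 reads in the unstimulated and 447 in the stimulated group, a ratio of 151 on the same scale (exact 95% interval 51.2 to 733, counting error only). Cyp1a1 was at 0.396, 0 and 0.618 TPM in unstimulated and 42.9, 30.9 and 14.3 TPM in stimulated libraries and Bcat1 at 1.27, 1.1 and 1.69 TPM in unstimulated and 45.6, 61 and 48.1 TPM in stimulated libraries (log2 fold changes 6.19 ± 0.80 and 4.89 ± 0.23). The 20 largest falls held 9 genes that have only a model number, a clone name or a pseudogene name and 3 interferon-induced genes (Ifi206, Ifit1bl1 and Isg15). Among the others Cd7, a surface glycoprotein of T cells, was at 42.7, 28.4 and 57.2 TPM in unstimulated and 2.06, 0.769 and 2.05 TPM in stimulated libraries (-5.15 ± 0.41), Sostdc1 at 135, 115 and 161 TPM in unstimulated and 11.4, 10.1 and 9.58 TPM in stimulated libraries, Dtx1, a target of Notch, at 147, 169 and 162 TPM in unstimulated and 14.8, 13.5 and 12.4 TPM in stimulated libraries and Art2b, an ADP-ribosyltransferase on the surface of mouse T cells, at 194, 135 and 178 TPM in unstimulated and 15.4, 8.07 and 22.2 TPM in stimulated libraries. The rule for these 20 genes admitted only those whose libraries did not overlap between the groups. Gal, which encodes the neuropeptide galanin, had 3 reads in the stimulated and 107 in the unstimulated group, a ratio of 35.3 (exact 95% interval 11.8 to 174). Gm32633, a lincRNA, was at 10.5 to 11.4 TPM in unstimulated Treg and had no read after stimulation, at least 44.2-fold lower with 3 reads over the group as the floor. Klrb1c, the NK receptor NK1.1, had 3.73 to 5.32 TPM in unstimulated and no read in stimulated Treg, at least 71.6-fold lower. Of 258 lincRNA genes tested 8 were called higher and 36 lower, and of 215 antisense genes 4 and 21, against 2207 and 1705 of 11249 protein-coding genes. Among all genes tested 18.7% were higher and 14.9% lower, so both classes had few rises and no excess of falls. The labels do not say whether reads were counted by strand, so reads of antisense genes and their partners may not be told apart. B2m, the light chain of MHC class I, was the most abundant gene called lower outside translation and the mitochondrial genome, at 11541, 9321 and 9215 TPM in unstimulated and 6431, 5313 and 5083 TPM in stimulated libraries. Ptma and Hsp90ab1 were the most abundant called higher and rose from 2785 ± 447 to 5796 ± 401 TPM and from 2639 ± 571 to 5651 ± 328 TPM, with small changes (0.65 and 0.69). Their calls were lost with the replicate block and when any 1 of 5 libraries was left out (adjusted p at most 0.044 and 0.056). Tuba1b and Mif, also among the 10 most abundant rises, had 21.3% and 34.2% of their reads placed uniquely, so their reads are shared with near-identical copies.

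Whether any of this was particular to CD18wt Treg was tested by the interaction of genotype and stimulation over all 12 libraries. Of 12636 genes tested 0 passed the same threshold (0%) with edgeR's quasi-likelihood test, where 485 had an unadjusted p under 0.05 and the smallest adjusted p was 0.56. DESeq2 called 1 gene. How large a difference between the genotypes this test could find was not examined, so 0 calls do not show that the responses were equal.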

How the data were processed

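Splenic CD18wt and CD18Foxp3 Treg were labelled unstimulated or stimulated, with 3 libraries each, and groups and replicate numbers were taken from the labels. The authors mapped single reads to GRCm38 with CLC Genomics Workbench and deposited counts of total exon reads for each of 41457 genes, without normalisation. Columns of TPM, RPKM and intron reads were deposited beside them, and TPM was recomputed here from exon counts and exon lengths. Libraries were amplified by PCR without molecular identifiers, so that intervals and floors of 3 reads cover counting error only, and the labels call the replicates biological without naming animals. The names of the deposited files carry a number that is shared by the unstimulated and stimulated library of each replicate and may stand for an animal, although no source used here says so.

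For the 6 CD18wt libraries, edgeR 4.0.16 (R 4.3.3) was run on exon counts. The filterByExpr function selected genes (minimum count 10), TMM factors scaled the libraries, and the robust quasi-likelihood test with Benjamini-Hochberg adjustment compared the groups. A call required a 1.5-fold change and an adjusted p of no more than 0.01. The interaction of genotype and stimulation was fitted over all 12 libraries in the same way. Alternatives were DESeq2 1.42.0, limma 3.58.1 on TPM after adding 1 or 0.1 and taking log2, other scaling factors, other filters, uniquely placed reads, a replicate block, a fit over all 12 libraries, a limit of 0.05 on the adjusted p, a test against the fold threshold (glmTreat) and leaving out each library.

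The text names the 20 largest rises and falls among called genes at 10 TPM or more in the higher group and at least 80% of reads placed uniquely (libraries not overlapping), for each of 38 function lists first the 3 largest called rises and falls and then members with a described role, the 10 most abundant called genes in either direction, and Itgb2 and Foxp3. A few genes that this rule names are not reported here. The CD18wt libraries, the lists, tests and alternatives were chosen with earlier results of these data known. Promoters were read from the RefSeq table of GRCm38.p6. Tested on simulated counts for the 11930 genes of this comparison, with 50 genes changed at each size, the test called 5 genes at 1.5-fold, 41 at 2-fold, 43 at 4-fold, 38 at 0.25-fold and 7 of 11730 unchanged genes.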

Additional observations from a re-analysis of the deposited data

Results flagged for a closer look

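Mamdc4 was the 1 gene in which the response differed between the genotypes by a test of the difference itself, and only with DESeq2 (log2 difference of CD18Foxp3 minus CD18wt responses -3.94, adjusted p = 0.0044). In CD18wt Treg it was at 0.681, 0.801 and 1.17 TPM unstimulated and 2.97, 3.39 and 1.05 TPM stimulated, and in CD18Foxp3 Treg at 2.91, 3.19 and 1.87 TPM unstimulated and 0.307, 0.311 and 0.843 TPM stimulated. The groups overlap in CD18wt, where stimulated replicate 3 lay within the unstimulated range, and the levels are low throughout. With edgeR's quasi-likelihood test the log2 difference was -3.94 and the adjusted p 0.56.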

How the results depend on the processing

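The counts of called genes stayed within 1.5 times of the reported ones under most alternatives. With glmTreat 2092 genes were called, 1236 higher and 856 lower. With limma 3589 were higher and 858 lower on log2(TPM + 1), and 3550 and 827 on log2(TPM + 0.1), scales that shifted log2 fold changes up. When each library was left out in turn, 3251 to 3843 genes were called, 1843 to 2182 higher and 1408 to 1673 lower, and the interaction called 0 to 0, against 1 with DESeq2 and 0 at an adjusted p of 0.05. With the replicate block 2010 genes were called higher and 1578 lower. Of the genes named, Bmf, Capg, Cox4i1, Cxcl10, Hsp90ab1, Icos, Ptma and Tnfrsf1a were then not called, and Cxcr4, Ifng and Klf6 were. The file names share a number between the same-numbered libraries of both groups, which may stand for one animal, but the labels do not say so, and their deviations correlated by 0.116, -0.043 and -0.126. The fit without the block was therefore kept, and if libraries do share animals the blocked fit is the one that takes this into account.

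Of 38 list medians 10 changed sign under at least 1 of 19 alternatives, of which 1 exceeded 0.5 in size, that of chemokines, where demanding 10 reads in every library removed Ccl3, Ccl4 and the other genes silent before stimulation. Of 256 called genes named in the text 187 kept the call under every alternative that tested them and 0 changed sign while called. Those that lost it on log2(TPM + 1) were 32, 31 of them lower and 1 higher (Xcl1), with adjusted p of at most 0.25. The lower ones were Bcl2, Bcl3, Birc2, Bmf, Ccr7, Cd3e, Cdkn1b, Cox4i1, Csf1, Cxcl10, Dusp10, Eef1a1, Fas, Ifnar1, Ikzf3, Il2rg, Itgb2, Lag3, Lck, Ldhb, Mcl1, Ndufa6, Nt5e, Prps2, Psmb10, Psmb9, Rbl2, Socs3, Tnfrsf1a, Tnfrsf26 and mt-Atp8. A call was lost without 1 library in 35 genes, with adjusted p of at most 0.06. Without unstimulated replicate 3 they were those named in the report. Of the 35, Bcl2, Hsp90ab1, Ier3, Prdm1, Ptma, Tnfrsf1a and mt-Atp8 lost it without any of 5 libraries, Capg, Csf1, Cxcl10, Gbp2, Nr4a2, Socs3, Tgfb1 and Txnip without any of 4, Cdkn1b, Cox4i1, Icos, Klf2, Myc, Nfil3, Psmb6 and Tgfbr1 without any of 3, Bcl3 (stimulated replicate 2, unstimulated replicate 1), Bmf (stimulated replicate 2, unstimulated replicate 2), Ifnar1 (stimulated replicate 2, unstimulated replicate 2), Pdcd1lg2 (stimulated replicate 2, unstimulated replicate 2), Socs1 (stimulated replicate 2, unstimulated replicate 1), Stat5a (stimulated replicate 3, unstimulated replicate 1) and Xcl1 (stimulated replicate 1, unstimulated replicate 3) without either of 2 and Abcg1 (stimulated replicate 2), Cish (stimulated replicate 3), Eef1a1 (stimulated replicate 1), Il1rn (unstimulated replicate 2) and Itgae (stimulated replicate 2) without 1. The cause was not tested. In simulated counts 5 of 50 genes changed by 1.5-fold were called, against 41 of 50 changed by 2-fold. As a call itself requires a 1.5-fold change, the simulation does not show how far the number of libraries accounts for the misses.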

Other observations

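Among the marker lists of other cell types, Cd79b and Pax5 of B cells, Lyz2 of myeloid cells and Klrb1c and Cd8b1 of CD8 T and NK cells were called lower in stimulated Treg and none was called higher. Markers tested were 3, 2 and 4 for these lists and 2 for plasma cells, and 14.9% of all genes tested were lower. Nkg7, the most abundant CD8 T and NK marker, was not called (log2 fold change 0.42). The sum of that list was 79.0 to 96.1 TPM in unstimulated and 93.6 to 148 TPM in stimulated libraries. Cd79b was at 24.2, 29.2 and 25.8 TPM in unstimulated and 18, 9.74 and 10.3 TPM in stimulated libraries.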
